A study of Mus musculus with 24 samples.

Results

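Double-stranded RNA sensing and interferon genes were followed through 4 mouse embryonic stem (ES) cell lines, with and without the m6A RNA methyltransferases *Mettl14* or *Mettl3*. The set consisted of 8 named genes, *Ifih1*, *Ddx58*, *Eif2ak2*, *Mavs*, *Irf7*, *Isg15*, *Ifit1* and *Adar*, listed by name for their roles and found in both deposited count tables among 47937 genes each. All lines descend from 129/Sv x C57Bl6 crosses and were grown on gelatin, with serum replacement and LIF. WT26 is wild type and is the parent of the *Mettl14* KO line, a single CRISPR/Cas9 clone with a homozygous frameshift deletion that truncates *Mettl14*; guides against *Mettl3* were transfected together with those against *Mettl14*, and the catalytic domain of *Mettl3* stayed intact in this clone. RBC carries BirA and Cre-ERT2 transgenes and is the parent of the *Mettl3* KO line, also 1 clone. No library was labelled as treated with interferon or double-stranded RNA, so every value below belongs to unstimulated cells. RNA-seq, made from nuclear RNA by the study's account, held 8 libraries, 2 per line, with 11321459 to 13743181 reads counted each. MeRIP-seq, which precipitates fragmented nuclear RNA with an antibody against m6A, held 16 libraries, 2 input and 2 immunoprecipitated (IP) per line, with 9394163 to 28441282 reads. Since each knockout was 1 clone set against 1 parent line, the genotype and the history of the clone cannot be told apart, and p-values measure the spread between 2 libraries per group, which are labelled as replicates with no mention of separate cultures in the labels.

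RIG-I, encoded by *Ddx58*, and MDA5, encoded by *Ifih1*, are cytoplasmic helicases that bind double-stranded RNA and signal through the mitochondrial adaptor protein *Mavs*. The signal activates the transcription factors *Irf3* and *Irf7*, which induce type I interferons, and interferon in turn induces a wide array of interferon-stimulated genes, *Isg15*, *Ifit1* and the sensors themselves included. PKR, encoded by *Eif2ak2*, is a kinase that halts translation when it binds double-stranded RNA, and *Adar* converts adenosine to inosine in such duplexes and thereby keeps endogenous RNA from being sensed. ES cells are known for a weak interferon response.

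The interferon-stimulated response element (ISRE) is a sequence through which interferon acts on its target promoters. Its core GAAANNGAAA was searched for on either strand. The window was the 300 bases from 250 before to 50 after each start site given by RefSeq (GRCm38.p6). The core was found in 5 of the 8 genes, against 3.99% of 27025 genes and 3.44% of 32851 windows. The matches are shown because they mark which of the genes carry the element in their promoter, with the core in capitals, 10 bases on either side where the space allows, 5′ to 3′ on the strand of the gene.
Ifih1: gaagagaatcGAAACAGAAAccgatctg
Ddx58: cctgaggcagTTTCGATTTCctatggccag
Eif2ak2: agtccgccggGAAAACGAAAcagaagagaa
Isg15: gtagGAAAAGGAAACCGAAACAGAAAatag
Ifit1: TTTCACTTTCcagtctcagTTTCAGTTTC
The stretch of *Ifih1* lies at chr2:62646206-62646233 and that of *Ddx58* at chr4:40239804-40239833, both on the minus strand and downstream of the start site. The stretch of *Eif2ak2* lies at chr17:78882535-78882564 on the minus strand, also downstream of the start. In *Isg15* (chr4:156200871-156200900, minus strand) 3 overlapping cores stand before the start site, and in *Ifit1* (chr19:34640785-34640813, plus strand) 2 separate cores do. The cores of *Ddx58* and *Ifit1* appear as the reverse complement because the match is on the opposite strand. *Mavs*, *Irf7* and *Adar* held no match to these letters in the windows searched. A second element linked to interferon, GAS, was searched for as TTCNNNGAA in the same windows. It had 2 matches in *Eif2ak2* and 2 in *Adar*, and 9.55% of 27025 genes held a match. A match is a description of the sequence and not a site shown to be bound.

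The 8 genes fell into 4 that were measured well and 4 that gave almost no reads in RNA-seq. *Ddx58*, *Eif2ak2*, *Mavs* and *Adar* passed the filter on low counts and were tested among 17021 genes. *Ifih1*, *Irf7*, *Isg15* and *Ifit1* did not pass it, with 24 reads among them in 101415834 reads counted over the 8 libraries. The 4 low genes were therefore not tested in RNA-seq. Any count of genes tested in RNA-seq below leaves out MDA5 and the 3 interferon-induced genes. Counts were scaled by size factors, and these normalized counts are the levels given below.

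**Figure D1:**
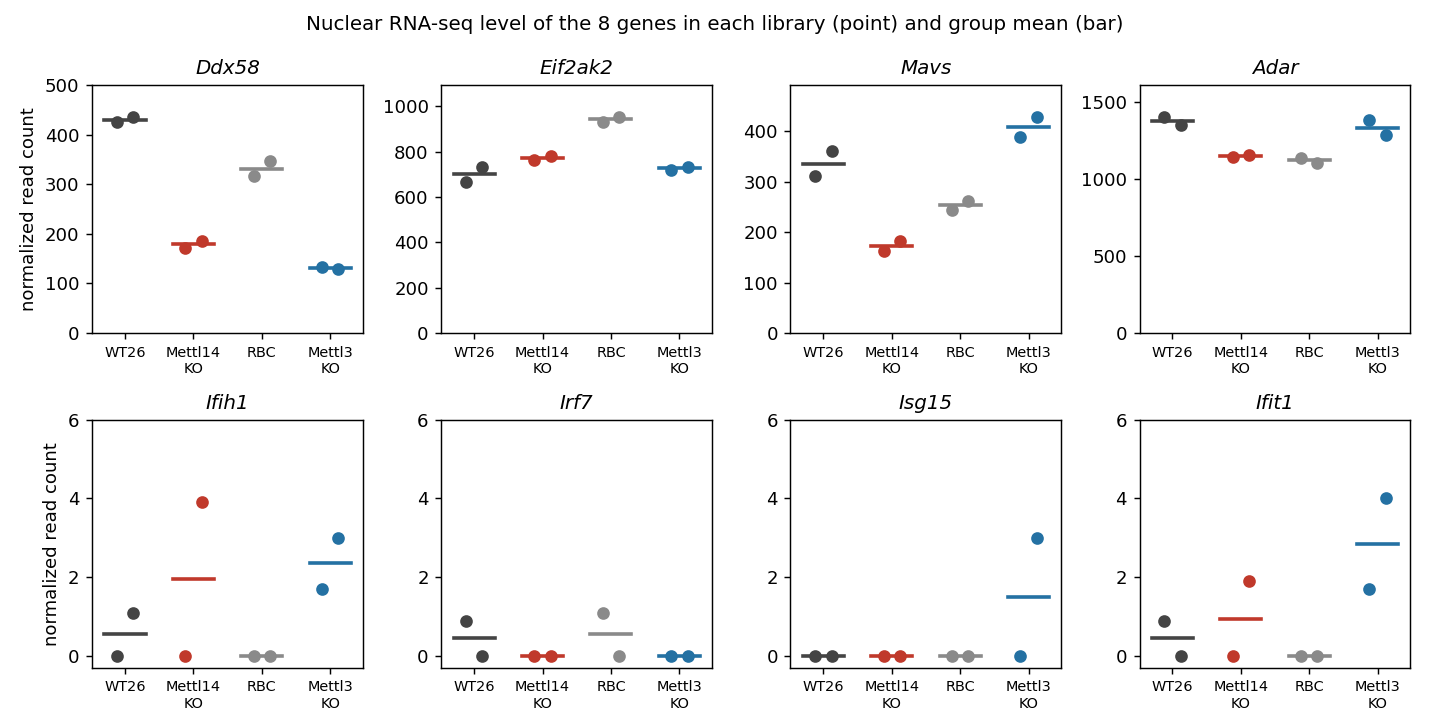
Normalized RNA-seq counts of the 8 genes in each library, 1 panel per gene with its own vertical axis, and 2 points per line for the 2 replicates. Ddx58, Eif2ak2, Mavs and Adar lie between 128.9 and 1398.1 in every library, whereas Ifih1, Irf7, Isg15 and Ifit1 stay at 4.0 or below.

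*Ifih1* had 0 and 1 reads in the WT26 libraries against 0 and 4 in *Mettl14* KO, and 0 and 0 in RBC against 2 and 3 in *Mettl3* KO. *Ifit1*, which encodes a protein that binds viral RNA lacking 2′-O-methylation of the cap, had 1 and 0, 0 and 2, 0 and 0, and 2 and 4 reads in the same order of lines. *Isg15*, a ubiquitin-like protein that is conjugated to other proteins, was counted in 1 library only, with 3 reads in *Mettl3* KO replicate 2. *Irf7* had 1 read in WT26 replicate 1 and 1 in RBC replicate 1. These values were at or near the limit that a count of 0 allows. That limit is 3 counts or 0.218 to 0.265 CPM (counts scaled to the total of the library) in these libraries, counting error only. A difference between lines could not be judged from such counts at this depth. *Ifih1*, *Ifit1* and *Isg15* had 0 reads in RBC and a few in *Mettl3* KO, whereas *Irf7* had 1 in RBC and 0 in *Mettl3* KO, and this pattern was not tested. Low levels were also seen in MeRIP-seq for *Ifih1*, with 6 reads over the 16 libraries, and for *Isg15*, with 14. *Ifit1* had 1 to 13 reads in each MeRIP-seq library.

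*Irf7* differed between the tables. It had 51 and 29 reads in WT26 input libraries against 77 and 31 in *Mettl14* KO, and 54 and 41 in RBC against 76 and 36 in *Mettl3* KO, whereas no RNA-seq library had more than 1 read. Of 15275 genes with a mean of at least 20 counts in the input libraries, 852 had at most 1 read in each RNA-seq library. *Irf7* lies at chr7:141262706-141266481 on the minus strand (GRCm38, GENCODE), and 45 bases or 1.19% of its exons are shared with *Phrf1* on the other strand. The strand setting used for counting is not given in the sources used here, and its part in the difference was not tested.

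Per kilobase of exon, *Eif2ak2* and *Adar* had the highest normalized RNA-seq levels of the set, with means over the 8 libraries of 154 and 153 normalized counts per kilobase. *Mavs* followed with 87.5 and *Ddx58* with 38 normalized counts per kilobase. Among 16947 tested genes with a length, 76.7% had a lower level than *Eif2ak2*, 61.1% a lower level than *Mavs* and 41% a lower level than *Ddx58*. *Adar* was above *Eif2ak2* in WT26, with 169 against 137 normalized counts per kilobase, and in *Mettl3* KO, with 164 against 142. The order was the other way in RBC, with 138 for *Adar* against 184 for *Eif2ak2*, and in *Mettl14* KO, with 141 against 151. *Mavs* and then *Ddx58* followed in each line, and within a line the libraries of neighbours in this order did not overlap.

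Loss of the methyltransferases was examined by comparing each knockout with its parent line in RNA-seq, with edgeR's quasi-likelihood test and an adjusted p of at most 0.05. The RIG-I gene *Ddx58* was lower in both knockouts, by more than 2-fold. PKR, *Mavs* and *Adar* changed by less than 2-fold and not in the same way in the 2 knockouts: *Mavs* and *Adar* were lower in *Mettl14* KO and higher in *Mettl3* KO, and *Eif2ak2* was lower in *Mettl3* KO only by this test. In *Mettl14* KO, 3 of the 4 tested genes passed as lower and none as higher, while 27.0% of all tested genes passed as lower and 25.5% as higher. In *Mettl3* KO, 2 passed as lower and 2 as higher, while 28.1% and 25.2% of all tested genes did. Of all tested genes, 52.5% passed in either direction in *Mettl14* KO, as did 53.4% in *Mettl3* KO, so that a call by itself sets none of the genes apart. The medians of the 4 log2 fold changes were −0.61 and −0.06, and those of all tested genes were 0.00 in both comparisons. In bulk RNA, fewer cells that express a gene and less RNA per cell cannot be told apart.

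*Ddx58* (chr4:40203773-40239828, minus strand) had 425.9 and 434.8 normalized RNA-seq counts in WT26 against 172.3 and 186.1 in *Mettl14* KO. It had 316.1 and 346.0 in RBC against 133.0 and 128.9 in *Mettl3* KO. Each knockout lay below its parent with no overlap, and the lines were ordered WT26, RBC, *Mettl14* KO and *Mettl3* KO with no overlap between neighbours. The log2 fold change was −1.26 in *Mettl14* KO (SE 0.0926, 95% interval −1.44 to −1.08, adjusted p = 3.5e-09 by edgeR), which is 2.4-fold lower. In *Mettl3* KO it was −1.34 (SE 0.1, interval −1.53 to −1.14, adjusted p = 4.2e-09 by edgeR), or 2.53-fold lower. A decrease past both the test and a 2-fold limit was seen in 6.57% of all tested genes in *Mettl14* KO and in 7.43% in *Mettl3* KO. The change in *Mettl3* KO minus that in *Mettl14* KO was −0.08 on the log2 scale, with an interval of −0.35 to 0.20 and an adjusted p of 0.694 by edgeR, so a difference within that interval was not detected.

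*Mavs* (chr2:131234063-131248025, plus strand) had 311.1 and 360.7 normalized RNA-seq counts in WT26, and 163.2 and 183.1 in *Mettl14* KO. In RBC it had 244.9 and 262.2, and in *Mettl3* KO 388.7 and 428.1. The 2 knockouts stood on opposite sides of their parents, and *Mettl3* KO held the highest level of the 4 lines. The log2 fold change was −0.95 in *Mettl14* KO (SE 0.106, adjusted p = 7.5e-07 by edgeR), which is 1.93-fold lower, and 0.68 in *Mettl3* KO (SE 0.0989, adjusted p = 1.4e-05 by edgeR), which is 1.61-fold higher. The difference between these changes was 1.63 on the log2 scale (SE 0.145, interval 1.35 to 1.92, adjusted p = 9.1e-08 by edgeR), with 20.8% of all tested genes passing this test in the same direction, 22.4% in the other and 43.2% in all.

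*Eif2ak2* (chr17:78852564-78882573, minus strand) had 665.6 and 733.3 normalized RNA-seq counts in WT26 and 764.2 and 779.4 in *Mettl14* KO. The libraries did not overlap, but the log2 fold change of 0.14 did not pass (SE 0.0659, interval 0.01 to 0.27, adjusted p = 0.0757 by edgeR). RBC held the highest level, 932.3 and 951.3, and *Mettl3* KO had 720.9 and 732.3. The log2 fold change in *Mettl3* KO was −0.37 (SE 0.0648, adjusted p = 9.5e-05 by edgeR), or 1.3-fold lower. The difference between the changes was −0.52 (SE 0.0924, interval −0.70 to −0.34, adjusted p = 2.0e-04 by edgeR). Of the exons of *Eif2ak2*, 4.32% are shared with 2 genes on the other strand.

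*Adar* (chr3:89715022-89753446, plus strand) had 1398.1 and 1347.4 normalized RNA-seq counts in WT26 and 1141.7 and 1151.5 in *Mettl14* KO. It had 1135.8 and 1105.1 in RBC against 1378.3 and 1283.2 in *Mettl3* KO. WT26 and *Mettl3* KO formed the higher level and their libraries overlapped, whereas *Mettl14* KO and RBC formed the lower one with a gap of a few counts between them. The log2 fold change was −0.26 in *Mettl14* KO (SE 0.0541, adjusted p = 6.0e-04 by edgeR) and 0.25 in *Mettl3* KO (SE 0.0544, adjusted p = 8.5e-04 by edgeR), 1.2-fold lower and 1.19-fold higher. Their difference was 0.51 (SE 0.0768, interval 0.36 to 0.66, adjusted p = 3.7e-05 by edgeR). Of the exons of *Adar*, 1365 bases or 16.8% are shared with *Chrnb2* on the other strand, and the part of such reads in its counts was not tested.

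**Figure D2:**
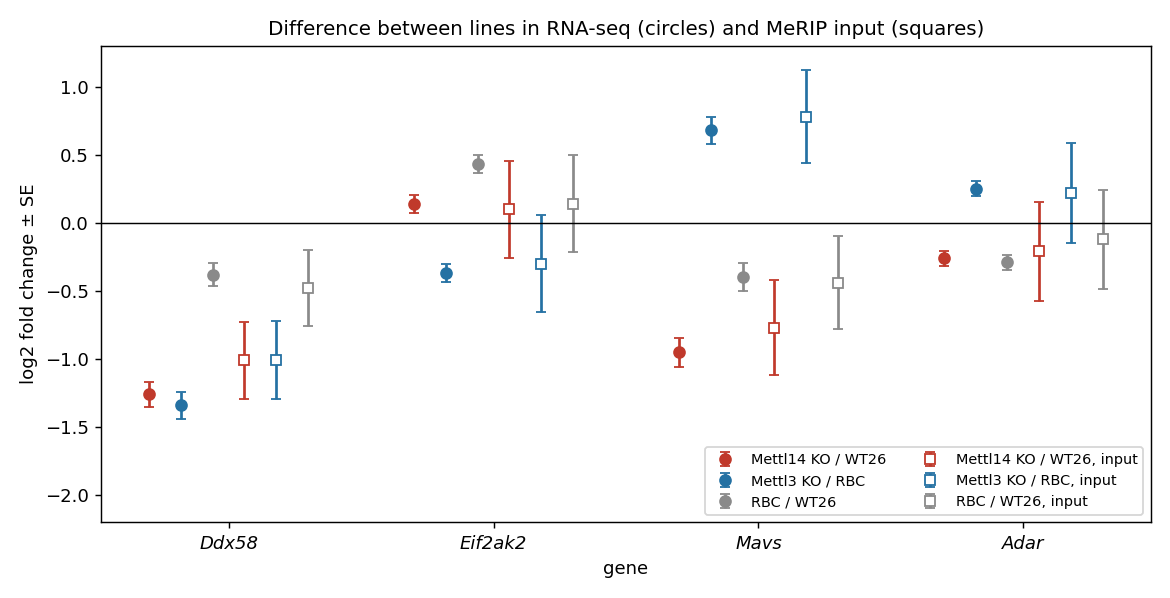
Log2 fold change of 4 genes in Mettl14 KO against WT26, Mettl3 KO against RBC and RBC against WT26, from RNA-seq (circles) and from the MeRIP-seq input libraries (squares), with bars of 1 SE. Ddx58 lies at −1.26 and −1.34 in the knockouts by RNA-seq and at −1.01 in both by input, and the bars of the input values are wider.

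The 2 parent lines differed as well. In RBC against WT26, *Ddx58* was lower by a log2 fold change of −0.38 (SE 0.0859, adjusted p = 0.002 by edgeR), *Mavs* by −0.40 (SE 0.102, adjusted p = 0.00442) and *Adar* by −0.29 (SE 0.0545, adjusted p = 3.2e-04). *Eif2ak2* was higher by 0.43 (SE 0.0653, adjusted p = 4.2e-05 by edgeR), or 1.35-fold. All 4 tested genes thus passed, 3 as lower and 1 as higher, against 19.2% and 19.7% of all tested genes (38.9% in either direction). The comparison shares its libraries with both knockout comparisons, so its values are given beside them and not as a separate support. For *Eif2ak2* and *Adar* the log2 fold change between the parents was larger in size than that in either knockout, and for *Ddx58* and *Mavs* it was smaller, which was not tested. Only 1 library decided the call of *Mavs* here: without WT26 replicate 2 the log2 fold change was −0.30 and the adjusted p 0.0651 by edgeR. Without the same library *Eif2ak2* passed as higher in *Mettl14* KO, at 0.21 with an adjusted p of 0.0417.

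The input libraries of MeRIP-seq gave a second measurement of RNA levels. *Ddx58* had 377.9 and 371.0 normalized counts in WT26 input against 154.2 and 221.0 in *Mettl14* KO, and 270.9 and 265.1 in RBC against 121.7 and 144.5 in *Mettl3* KO. Both knockouts lay below their parents without overlap, as they did in RNA-seq. The log2 fold change was −1.01 in each, with SEs of 0.284 and 0.287, and neither passed (adjusted p = 0.149 and 0.135 by edgeR). Libraries of the same replicate number deviated together across the lines, and when the replicate number entered the fit as a block the values were −1.03 (adjusted p = 0.0373 by edgeR) and −1.02 (adjusted p = 0.0362), both past the threshold. The block raised the number of all features that passed in *Mettl14* KO from 90 to 377 and that in *Mettl3* KO from 172 to 444.

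*Mavs* had 291.5 and 202.9 normalized input counts in WT26 against 143.5 and 147.3 in *Mettl14* KO, and 169.7 and 195.6 in RBC against 326.1 and 301.9 in *Mettl3* KO. The line means were ordered as in RNA-seq, with log2 fold changes of −0.77 and 0.78 that did not pass (adjusted p = 0.446 and 0.385 by edgeR). *Eif2ak2* had values of 0.10 and −0.30, *Adar* of −0.21 and 0.22, and *Irf7* of 0.68 and 0.18, none of which passed. In the input, 0 of the 5 genes tested passed in either knockout by edgeR without the block, against 0.398% and 0.760% of all features, and 0 did by DESeq2; 2 genes, *Ddx58* and *Mavs*, had an unadjusted p under 0.05 in each, beside 10.6% and 11.7% of all features. In RBC against WT26, 0 of the 5 passed by either tool and 0 had an unadjusted p under 0.05, while 0.584% of all features passed by edgeR, and the log2 fold change of *Ddx58* was −0.48 (adjusted p = 0.791). The spread between input libraries was larger than in RNA-seq, with a common biological coefficient of variation of 0.273 over all MeRIP-seq libraries against 0.0625.

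The m6A signal was read as the level in the IP over that in the input. IP and input libraries were scaled together, which holds the median feature near equal levels in both in each line. The ratios are thus relative to that feature, and a change of m6A shared by most features would not show in them. Of the 8 genes, 5 passed the filter in MeRIP-seq, where *Irf7* joins the 4 above, and a gene counted as enriched where the adjusted p was 0.05 or less and the log2 fold change exceeded 1. By this rule *Adar* was enriched in WT26 and RBC, and *Eif2ak2* in RBC. The rule called 14.5% of all features in WT26 and 13.4% in RBC, against 1 and 2 of the 5 genes. No gene of the set passed in *Mettl14* KO or *Mettl3* KO by edgeR, where 11.9% and 2.54% of all features did. In *Mettl14* KO, 2 of the 5 had an unadjusted p under 0.05 and 2 passed by adjusted p in DESeq2, beside 41.2% and 29.3% of all features. In *Mettl3* KO these counts were 1 and 0, beside 25.7% and 10.6%. The medians of the 5 genes were 0.65 in WT26, 0.45 in *Mettl14* KO, 0.72 in RBC and 0.11 in *Mettl3* KO, and those of all features lay between −0.01 and 0.02.

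*Adar* had IP over input ratios of 1.73 and 3.03 in WT26 against 1.37 and 2.66 in *Mettl14* KO, and 1.48 and 2.66 in RBC against 1.04 and 1.72 in *Mettl3* KO. Replicate 2 was above replicate 1 in each line. The log2 enrichment was 1.24 in WT26 (SE 0.368, adjusted p = 0.0221 by edgeR), 0.99 in *Mettl14* KO (adjusted p = 0.0601), 1.07 in RBC (SE 0.367, adjusted p = 0.0428) and 0.45 in *Mettl3* KO (adjusted p = 0.453). With each input and its IP as a pair the value in RBC was 0.99 with an adjusted p of 0.0546 by edgeR, and the call was lost. The call in WT26 was lost when 1 library was left out: the log2 enrichment was 1.28 without input replicate 1 (adjusted p = 0.0965 by edgeR), 1.20 without input replicate 2 (0.116) and 0.84 without IP replicate 2 (0.213). Over all features the number enriched fell alongside, from 3272 to 793, 60 and 22, so that the loss was not particular to *Adar*.

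*Eif2ak2* had ratios of 1.59 and 2.19 in WT26 against 1.72 and 2.25 in *Mettl14* KO, and 1.78 and 2.3 in RBC against 1.57 and 2.09 in *Mettl3* KO. All 4 lines held nearly the same range. The log2 enrichment was 0.96 in WT26, 1.01 in *Mettl14* KO, 1.05 in RBC and 0.88 in *Mettl3* KO, with adjusted p-values of 0.0511, 0.0517, 0.0425 and 0.143 by edgeR. The call in RBC was lost without any 1 of 3 libraries of that line, input replicate 1 (log2 0.91, adjusted p = 0.193 by edgeR), input replicate 2 (1.19, 0.135) and IP replicate 2 (0.69, 0.319). Without the same libraries *Adar* had 0.99, 1.17 and 0.48 in RBC, with adjusted p-values of 0.178, 0.149 and 0.466, and the features enriched in the whole table fell from 3030 to 404, 1 and 37. Other genes passed when an IP library of replicate 1 was left out: *Eif2ak2* in WT26 (log2 1.37, adjusted p = 0.0112 by edgeR), *Eif2ak2* and *Adar* in *Mettl14* KO (1.33 and 1.36, adjusted p = 0.0208 and 0.0183) and *Mavs* in RBC (1.17, adjusted p = 0.0154), while the features enriched in the whole table rose to 4320, 3797 and 4186.

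*Mavs* had ratios of 1.16 and 1.84 in WT26 against 1.01 and 1.75 in *Mettl14* KO, and 1.16 and 2.09 in RBC against 0.828 and 0.927 in *Mettl3* KO. Only *Mettl3* KO had both libraries below 1, although none of the 4 enrichments passed (log2 0.52, 0.45, 0.72 and −0.19). *Irf7* had ratios of 1.51 and 1.62 in WT26 against 0.788 and 1.4 in *Mettl14* KO, and 0.888 and 1.63 in RBC against 0.688 and 0.954 in *Mettl3* KO, and none of its enrichments passed (log2 0.65, 0.10, 0.29 and −0.31). *Ddx58* had ratios of 1.07 and 1.58, 1.11 and 1.2, 1.02 and 1.25, and 1.08 and 1.08 in the same order of lines. Its log2 enrichment was 0.40, 0.22, 0.18 and 0.11, the lowest of the 5 genes in both parent lines, and did not pass in any line.

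**Figure D3:**
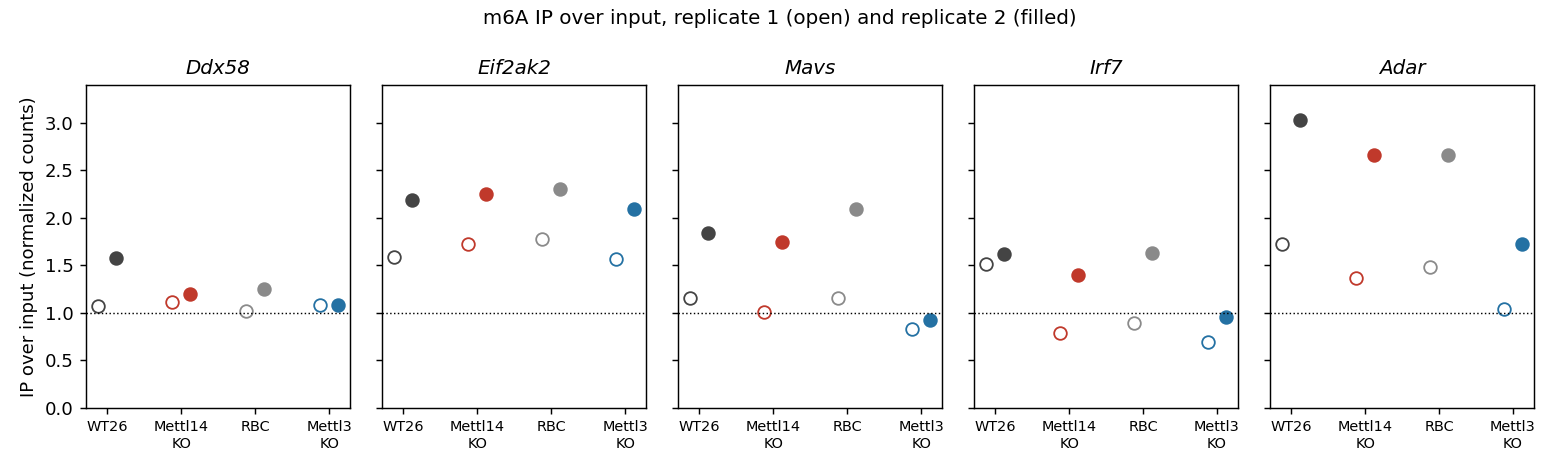
Ratio of normalized counts in IP over input for 5 genes in each line, with replicate 1 as open and replicate 2 as filled points. Replicate 2 is equal to or above replicate 1 in each case, and Adar spans 1.73 to 3.03 in WT26 and 1.04 to 1.72 in Mettl3 KO.

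The change of IP over input between knockout and parent was tested as an interaction. None of the 5 genes passed, 0 had an unadjusted p under 0.05, and 0 passed by DESeq2. Of all features, 0% passed by edgeR in both comparisons, with 126 at an unadjusted p under 0.05 in *Mettl14* KO and 787 in *Mettl3* KO. In *Mettl14* KO the log2 changes ran from −0.55 for *Irf7* to 0.05 for *Eif2ak2*, whose interval was −0.93 to 1.03. In *Mettl3* KO the value was −0.91 for *Mavs* (SE 0.478, interval −1.85 to 0.02, adjusted p = 0.854 by edgeR), −0.62 for *Adar* (interval −1.63 to 0.39), −0.60 for *Irf7*, −0.17 for *Eif2ak2* and −0.07 for *Ddx58*. All 5 were below 0 in *Mettl3* KO, but the intervals reached 0 or past it. No loss of m6A relative to the median feature was detectable for these genes at this depth and replication.

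The sequence motif GGACT, the core at which m6A is most often placed, was counted in the longest coding transcript of each gene. *Eif2ak2* held 9 motifs or 2.09 per kilobase, a density above that of 89.6% of 21594 genes. *Ddx58* held 5 or 1.29 per kilobase, *Adar* 6 or 1.02, *Mavs* 3 or 0.981 and *Irf7* 0, beside a median of 1.01 per kilobase over all genes. *Adar*, with the highest log2 enrichment in WT26, thus had a density close to the median. A motif in the transcript is not a methylated site.

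The other genes of the pathway were read from 8 lists of 134 genes by role, of which the set of 8 is part. Of these, 92 were tested in RNA-seq. In *Mettl14* KO 26 passed as higher, 30 as lower and 36 did not pass, with a median log2 fold change of 0.02 against 0.00 for all genes. In *Mettl3* KO 30 passed as higher, 21 as lower and 41 did not pass, with a median of 0.12 against 0.00. The shares that passed in either direction, 60.9% and 55.4%, stood beside 52.5% and 53.4% of all genes. The counts of each list below are to be read against the shares of all genes that passed as higher and as lower, 25.5% and 27.0% in *Mettl14* KO against 25.2% and 28.1% in *Mettl3* KO. Of the 92, 9 were lower in both knockouts (9.78%), 11 higher in both (12%) and 12 passed in opposite directions (13%), beside 13.3%, 10.1% and 8.62% of all tested genes.

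**Figure D4:**
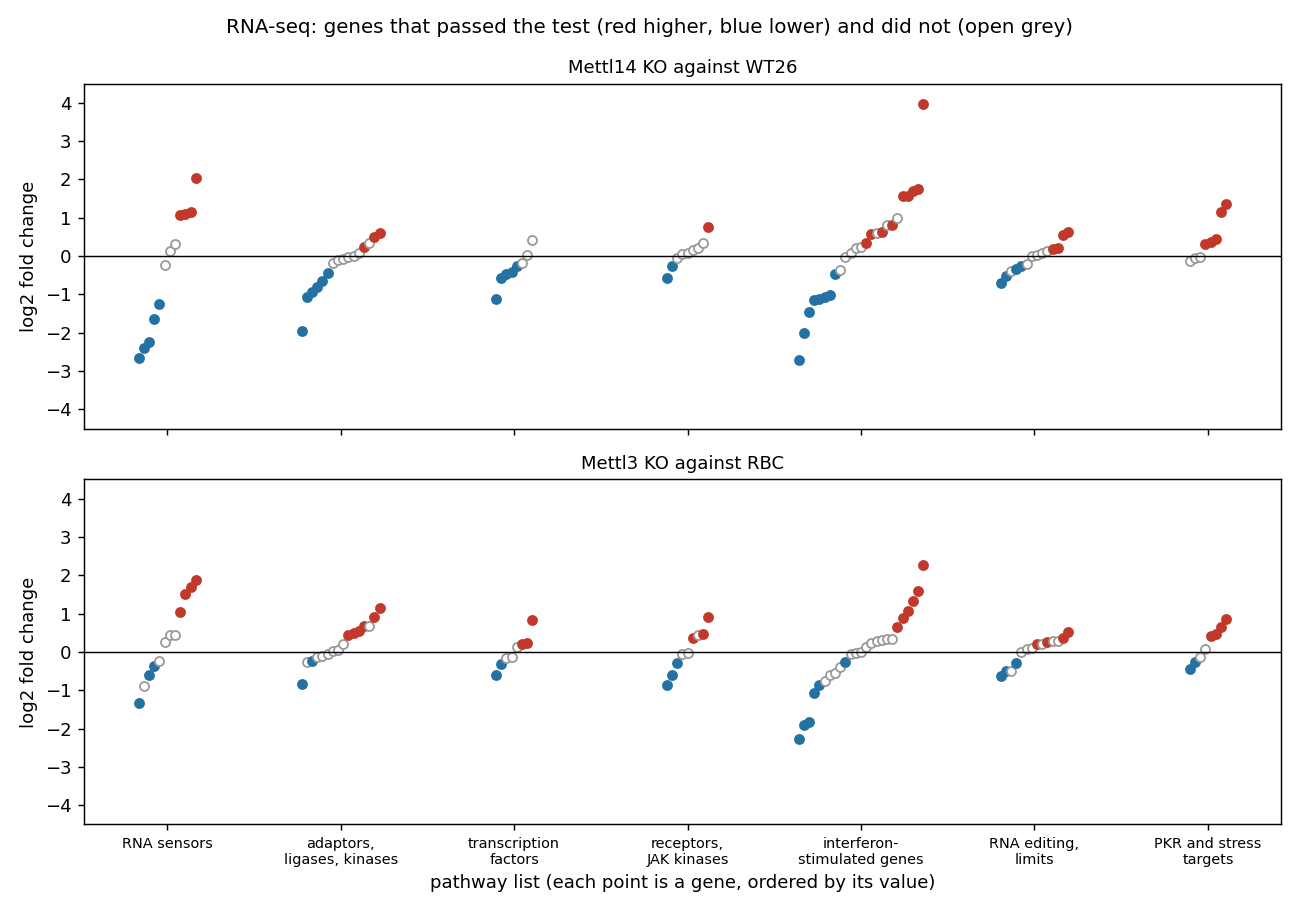
RNA-seq log2 fold changes of the tested genes of 7 pathway lists, 1 point per gene, in Mettl14 KO against WT26 (top) and Mettl3 KO against RBC (bottom). The 25 tested interferon-stimulated genes lie on both sides of 0 in both panels, with medians of 0.24 and 0.01.

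Among the interferon ligands no gene was expressed at a level that could be tested. Of 13 interferon genes, 11 were at 0 in all RNA-seq libraries, and *Ifne* and *Ifnk* had 1 read each. *Ifnb1*, the first interferon made after double-stranded RNA is sensed, had 0 reads in both tables. *Ifnk* had 131 reads over 14 of the 16 MeRIP-seq libraries, with at most 23 in any library.

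Among 14 RNA sensors, 12 were tested, of which 4 were higher and 5 lower in *Mettl14* KO, and 4 higher and 3 lower in *Mettl3* KO. The genes of the oligoadenylate synthetase family moved in both directions. Active enzymes of this family activate RNase L on binding double-stranded RNA, and *Oas1b* is annotated as a polymorphic pseudogene. *Oas2* had 217.9 and 179.3 normalized counts in WT26 against 31.0 and 44.8 in *Mettl14* KO, and 92.0 and 104.5 in RBC against 56.5 and 73.5 in *Mettl3* KO, with log2 fold changes of −2.39 (adjusted p = 1.1e-08 by edgeR) and −0.61 (adjusted p = 0.0124). *Oas1a* was lower in *Mettl14* KO at −2.65 (adjusted p = 1.1e-06 by edgeR) and higher in *Mettl3* KO at 1.05 (adjusted p = 0.00519). *Oas1g* was lower in *Mettl14* KO at −1.65, and *Oas1b* and *Oas1c* were higher in *Mettl3* KO at 1.87 and 1.52. The Oas1 genes are close copies of each other and reads may be split between them, so their values are uncertain. *Tlr3*, the endosomal receptor for double-stranded RNA, had 8.1 and 11.8 normalized counts in WT26 and 39.1 and 41.9 in *Mettl14* KO, a log2 fold change of 2.03 (adjusted p = 3.6e-05 by edgeR), against −0.23 in *Mettl3* KO (adjusted p = 0.613).

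Of 16 adaptors, ubiquitin ligases and kinases, 3 were higher and 6 lower in *Mettl14* KO, and 6 higher and 2 lower in *Mettl3* KO. *Tmem173*, which encodes the DNA-sensing adaptor STING, had 114.8 and 117.0 normalized counts in WT26 against 24.0 and 35.1 in *Mettl14* KO, and 26.4 and 25.6 in RBC against 50.4 and 65.5 in *Mettl3* KO. Like *Mavs*, it was lower in *Mettl14* KO, at −1.96 (adjusted p = 4.3e-07 by edgeR), and higher in *Mettl3* KO, at 1.14 (adjusted p = 7.2e-04). Of 8 transcription factors tested, 0 were higher and 5 lower in *Mettl14* KO, with a median of −0.35, and 3 were higher and 2 lower in *Mettl3* KO, with a median of −0.01. Of 9 interferon receptors and JAK kinases, 1 was higher and 2 lower in *Mettl14* KO, and 3 were higher and 3 lower in *Mettl3* KO.

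Of 47 interferon-stimulated genes, 25 were tested. A mean below 5 normalized counts was seen for 20 of the 47, among them 5 at 0 in all RNA-seq libraries. The genes of the list at 0 numbered 16 and 16 in the WT26 libraries against 17 and 13 in *Mettl14* KO. In RBC they numbered 16 and 15 against 10 and 9 in *Mettl3* KO, which was not tested. In *Mettl14* KO 9 were higher and 8 lower, 5 and 7 of them by more than 2-fold, beside 7.95% and 6.57% of all tested genes. In *Mettl3* KO 6 were higher and 6 lower, 4 and 4 of them by more than 2-fold, beside 6.15% and 7.43%. The summed level of the list was 4125.4 to 4146.4 normalized counts in WT26, 3318.1 to 3330.8 in *Mettl14* KO, 2732.7 to 2785.4 in RBC and 3007.1 to 3019.7 in *Mettl3* KO, so the sum was below the parent in *Mettl14* KO and above it in *Mettl3* KO. The largest rise in *Mettl3* KO was that of *Ifitm2*, chosen after its values were seen, with 725.4 and 682.2 normalized counts in RBC against 1112.2 and 1115.0 in *Mettl3* KO. Without *Ifitm2* the sum was 2050.5 to 2060.0 in RBC against 1894.9 to 1904.7 in *Mettl3* KO. That sum was also lower in *Mettl14* KO (2011.7 to 2016.1) than in WT26 (3066.3 to 3131.6). *Ifitm2* itself had 993.8 and 1080.1 normalized counts in WT26 against 1302.0 and 1319.1 in *Mettl14* KO. Leaving it out could therefore only widen the difference from WT26, and the genes that fell were not left out. Leaving out the gene that rose most, with those that fell kept in, always lowers the difference in *Mettl3* KO. It shows that the sign of the difference in *Mettl3* KO depended on *Ifitm2*, and not that other genes did not rise. *Xaf1*, an inhibitor of the anti-apoptotic protein XIAP, had means of 342.4 ± 27.3 normalized counts in WT26 against 84.9 ± 8.12 in *Mettl14* KO, and of 189.3 ± 22.3 in RBC against 90.3 ± 13.7 in *Mettl3* KO (SD, n = 2). It was lower in both knockouts, at −2.01 (adjusted p = 9.7e-10 by edgeR) and −1.06 (adjusted p = 5.8e-06), as was *Samd9l*, an antiviral protein, at −1.01 (adjusted p = 4.5e-06) and −1.84 (adjusted p = 5.7e-09). Of the 25 tested genes of the list, 3 were lower in both knockouts, 3 higher in both and 3 passed in opposite directions. Each is 12%, beside 13.3%, 10.1% and 8.62% of all tested genes.

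*Ifitm1*, which restricts virus entry, was lower in *Mettl14* KO at −1.46 (adjusted p = 3.2e-08 by edgeR) and had 0.31 in *Mettl3* KO (adjusted p = 0.0644). *Ifit2*, a relative of *Ifit1*, had 32.2 and 23.7 normalized counts in RBC against 61.7 and 53.4 in *Mettl3* KO, a log2 fold change of 1.06 (adjusted p = 0.0016 by edgeR), against 0.60 in *Mettl14* KO (adjusted p = 0.0538). *Ifi35* was higher in *Mettl3* KO at 1.58 (adjusted p = 9.5e-05 by edgeR) and had 0.09 in *Mettl14* KO (adjusted p = 0.802). Of 38 interferon-stimulated genes with a RefSeq window, 20 held the ISRE core (52.6%), as did 7 of 10 RNA sensors, beside 3.99% of all genes.

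Of 14 tested genes for RNA editing and limits on sensing, the list of *Adar*, 4 were higher and 4 lower in *Mettl14* KO, and 4 higher and 3 lower in *Mettl3* KO. The list of the PKR substrate and stress response targets held 8 genes, and PKR activity was not tested. Of these, 5 were higher and 0 lower in *Mettl14* KO, beside 25.5% and 27.0% of all genes, with a median of 0.34. In *Mettl3* KO 4 were higher and 2 lower, beside 25.2% and 28.1%, with a median of 0.25. *Atf3*, a stress-induced transcription factor, was higher in both, at 1.35 (adjusted p = 8.0e-05 by edgeR) and 0.65 (adjusted p = 0.0224). In MeRIP-seq 19 of 99 tested genes of the 8 lists were enriched in WT26, 17 in RBC, 16 in *Mettl14* KO and 1 in *Mettl3* KO, beside 14.5%, 13.4%, 11.9% and 2.54% of all features. *Samd9l* had the highest log2 enrichment among them in WT26, 2.10, with 1.86 in RBC, followed by the adaptors *Tradd* (1.93 and 1.76) and *Fadd* (1.86 and 1.56). *Ticam1*, the adaptor of *Tlr3*, had 1.74 and 1.88, and *Tlr3* itself had 2.35 in RBC. In WT26, *Ppp1r15a*, a phosphatase subunit that reverses the action of PKR, had 1.69, and *Socs3*, an inhibitor of JAK kinases, lay between *Fadd* and *Trib3*. The stress response genes *Trib3* and *Chac1* had 1.78 and 1.64 in WT26 and 1.91 and 1.90 in RBC, and *Helz2*, a helicase induced by interferon, had 1.46 in RBC.

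The genes whose levels over the 8 RNA-seq libraries were most like those of *Ddx58*, among 11878 genes whose mean reached 50 normalized counts, were *Zfp229* and *Jam2*, with a Pearson r of 0.997 each. For *Mavs* they were *Tefm* (r = 0.99) and *Ssx2ip* (0.989), and for *Adar* *Dlgap3* (0.977) and *Tmc8* (0.972). The libraries fall into 4 lines, so that r describes the pattern over 4 groups, and 721 genes had an r above 0.9 with *Ddx58*, 244 with *Mavs* and 104 with *Adar*.

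The 2 RBC libraries of RNA-seq differed more than the replicates of the other lines, with a chi-square per degree of freedom over genes of 39.8 against 2.95 to 6.31, and the 4 tested genes passed in *Mettl3* KO without either of them.

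The targeted genes and cell type markers were read in the same RNA-seq libraries. *Mettl14* had 400.6 and 357.5 normalized counts in WT26 and 296.5 and 315.6 in *Mettl14* KO, a log2 fold change of −0.31 (adjusted p = 0.00609 by edgeR). *Mettl3* had 927.7 and 978.9 in RBC against 880.0 and 820.9 in *Mettl3* KO, at −0.16 (adjusted p = 0.0588). RNA from both genes was present in the knockouts, and a frameshift need not remove it, so these levels neither check nor contradict the labels. ES cell markers were present in all lines, with means for *Pou5f1* of 3427.5 normalized counts in WT26, 2260.4 in *Mettl14* KO, 3305.7 in RBC and 2187.6 in *Mettl3* KO. Of these markers, 8 of 8 were lower in *Mettl14* KO and 7 of 8 in *Mettl3* KO, beside 27.0% and 28.1% of all tested genes. The other marker, *Klf4*, had 1255.3 and 1230.3 in RBC against 1867.9 and 1852.3 in *Mettl3* KO. Primitive endoderm markers summed to 99.8 to 103.1 in WT26 and 307.8 to 323.5 in *Mettl14* KO, with 5 of 5 tested higher, beside 25.5% of all tested genes. They summed to 162.1 to 175.5 in RBC and 118.3 to 147.1 in *Mettl3* KO. The leukocyte markers *Ptprc*, *Lyz2*, *Csf1r* and *Adgre1* were at 3.0 or below in each RNA-seq library, and the list summed to 268.7 to 440.7, mostly through *Cd68*. *Itgam* reached 10.7 in WT26 replicate 2. *Csf1r* had 32 to 85 reads in the MeRIP-seq input libraries, so its RNA-seq level alone does not show that it was absent. Fibroblast markers summed to 54.6 to 129.1. The part of these shifts in the levels of the sensing genes was not tested.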

How the data were processed

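The data comprised RNA-seq (8 libraries) and MeRIP-seq (16 libraries) of ES cells, with 2 replicates of WT26 and RBC and of the *Mettl14* KO and *Mettl3* KO lines made from them. The authors deposited raw read counts per gene (in MeRIP-seq also per repeat subfamily), made per the labels and the methods from rRNA-depleted stranded libraries by trimming (cutadapt 1.8.1) and alignment to GRCm38 (STAR 2.6.0c). MeRIP-seq reads were kept with up to 100 positions and counted with TEtranscripts, which can blur close gene copies. For RNA-seq the counting tool and the treatment of such reads, and for both tables the strand setting, are not given in the sources used here. For MeRIP, 3 reactions were combined per biological replicate.

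Deposited counts were scaled with DESeq2 size factors and fitted per table, over all libraries and features, with edgeR 4.0.16 (quasi-likelihood test, filterByExpr, R 4.3.3) and Benjamini-Hochberg adjustment over 17021 RNA-seq and 22621 MeRIP-seq features. Intervals are 95%. The RNA-seq groups were the 4 lines and the MeRIP-seq groups the 8 combinations of line and library kind. The threshold was an adjusted p of at most 0.05, for enrichment also a log2 fold change above 1. Limits for a count of 0 (3 counts) cover counting error only. Alternatives were TMM, library-size scaling, DESeq2 1.42.0, other filters, fits on 4 libraries, a 2-fold limit, replicate blocks and leaving out each replicate. Scripts were tested on simulated counts. Gene positions are GENCODE GRCm38 and promoter windows RefSeq GRCm38.p6.

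The replicate numbers come from the labels. In MeRIP-seq, same-numbered inputs of different lines correlated in their deviations from the group means at 0.251 to 0.452, same-numbered IPs at 0.598 to 0.806, and input with IP of 1 line at 0.195 to 0.28, so blocked values are given where they change a call. In RNA-seq these correlations ran from −0.172 (WT26 with RBC) to 0.453 (RBC with *Mettl3* KO), with −0.0713 for WT26 with *Mettl14* KO. Libraries of the same number thus deviated together between some lines only, and the block left the RNA-seq counts of the set as they were. The 8 genes and the lists were chosen with earlier results of these data known. List genes were named where they had a mean of at least 20 normalized counts and passed both the test and the 2-fold limit in a knockout, or enrichment in a parent line, at most 8 per comparison. The 2 genes most alike to a member were named where it passed in both knockouts.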

Additional observations from a re-analysis of the deposited data

Results flagged for a closer look

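The change upon knockout differed between *Mettl14* KO and *Mettl3* KO, by a test of the difference itself in RNA-seq, for 3 of the 4 tested genes. Given as *Mettl3* KO minus *Mettl14* KO on the log2 scale, the difference was 1.63 for *Mavs* (adjusted p = 9.1e-08 by edgeR), 0.51 for *Adar* (adjusted p = 3.7e-05) and −0.52 for *Eif2ak2* (adjusted p = 2.0e-04). This test was passed by 43.2% of all tested genes, and the knockouts have different parent lines. *Irf7* had up to 77 reads in an input library of MeRIP-seq and at most 1 read in each RNA-seq library. Among the genes of the lists and cell type markers, *Trex1* (5 to 36 input reads, 0 in RNA-seq) and *Csf1r* (32 to 85 input reads, at most 1 in RNA-seq) had the same pattern, and the cause was not tested.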

How the results depend on the processing

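No result past the threshold turned its direction under the alternatives run. Of the genes of the set, 3 passed in RNA-seq of *Mettl14* KO, 4 in *Mettl3* KO, 4 in RBC against WT26 and 3 in the difference between the knockouts. With a 2-fold limit added these counts were 1, 1, 0 and 1, and leaving out 1 replicate gave 3 to 4, 4 to 4, 3 to 4 and 3 to 3. The replicate block, TMM and DESeq2 left the RNA-seq counts as they were. With the block, 9011 genes in all passed in *Mettl14* KO and 9142 in *Mettl3* KO, against 8930 and 9085 without it. Enrichment counts moved more. In *Mettl14* KO the count of 0 became 2 with TMM and with library-size scaling, and 1 with DESeq2, without a filter, with a minimum of 10 counts and with only the 4 libraries of the line. In WT26 the count of 1 became 3, and in *Mettl3* KO the count of 0 became 1, with library-size scaling, which also took RBC from 2 to 3 and raised the features enriched in the whole table from 3272 to 5714 in WT26. In RBC the count of 2 became 1 with the replicate block of input and IP pairs, 1 with a block per library kind chosen after seeing the data, and 1 with only its 4 libraries. Leaving out 1 library gave 0 to 2 genes in WT26, 0 to 2 in *Mettl14* KO, 0 to 3 in RBC and 0 to 0 in *Mettl3* KO, while the features enriched in the whole table ranged from 22 to 4320 in WT26 and from 1 to 4186 in RBC. For the input, the replicate block raised the count from 0 to 1 in each knockout. Library-size scaling moved the median log2 value of all features to between 0.37 and 0.49 for IP over input, from between −0.01 and 0.02, and to 0.15 for *Mettl3* KO against RBC, from 0.00. The change of IP over input stayed at 0 genes under each alternative. The causes of these moves were not tested. The 2 libraries per group and the spread of MeRIP-seq limit what could be detected.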

Other observations

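With the replicate number as a block for input and another for IP over the 4 lines, a fit chosen after seeing the data, the spread left was smaller. *Eif2ak2* had a log2 enrichment of 0.91 in WT26, 0.97 in *Mettl14* KO, 1.02 in RBC and 0.85 in *Mettl3* KO, with adjusted p-values of 8.0e-05, 5.3e-05, 3.0e-05 and 4.1e-04 by edgeR. *Adar* had 1.20, 0.93, 0.99 and 0.42, with adjusted p-values of 2.9e-06, 4.7e-05, 2.2e-05 and 0.0282. By adjusted p alone both genes were thus above input in all 4 lines, but the block also raised the features enriched in the whole table, from 3272 to 3958 in WT26, 2692 to 3545 in *Mettl14* KO, 3030 to 3789 in RBC and 575 to 1922 in *Mettl3* KO, so that passing was not particular to these genes. The interaction of *Adar* in *Mettl3* KO against RBC, −0.57, did not pass (adjusted p = 0.144).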
